A study of Mus musculus with 21 samples.

Results

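The genes that encode the activators of the circadian clock were followed in small intestinal IgA+ plasma cells (IgA+ PCs), the antibody-secreting cells of the gut lamina propria. The members were chosen by gene name and are *Arntl*, the gene of Bmal1, its paralog *Arntl2*, *Clock*, and the *Clock* paralog *Npas2*, which are 4 of the 53801 genes in the table of counts. IgA+ PCs were sort-purified from 21 mice, and poly-A RNA of each mouse was sequenced at ZT0 or ZT12, where zeitgeber time (ZT) is counted in hours from lights on. The control mice were *Mb1* +/+ x *Arntl* fl/fl animals, 6 at ZT0 and 6 at ZT12, so their *Arntl* alleles carried loxP sites but no Cre was present. The knockout mice were *Mb1* Cre/+ x *Arntl* fl/fl animals, 4 at ZT0 and 5 at ZT12, in which Cre is made from the *Mb1* (*Cd79a*) locus in cells of the B lineage. Between 14471018 and 22785835 reads were counted on genes in a mouse, and immunoglobulin genes took 51.5% to 63.6% of them.

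Bmal1 and Clock are bHLH-PAS proteins that pair and bind E-boxes in DNA. They switch on their own repressors, the Period and Cryptochrome proteins, and the REV-ERB receptors, which in turn repress *Arntl*, while ROR receptors compete for the same sites and activate it. Npas2 can take the place of Clock in the pair, and Arntl2 that of Bmal1.

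The labels were first checked against the cells and the genotypes. *Igha* and *Jchain*, which encode the heavy chain of IgA and the chain that joins IgA molecules, were the most abundant of the 8 plasma cell markers, and all 8 were counted in every mouse. Counts-per-million values (CPM) here and below use library sizes scaled by edgeR's TMM factors. *Cd79a*, the locus that carries Cre, lay at 385.8 to 586 CPM in control mice and at 163 to 276 CPM in knockout mice, so every knockout mouse was below every control mouse. The fitted log2 difference of *Cd79a* was -1.21 at ZT0 (edgeR adjusted p = 9.08e-05) and -1.18 at ZT12 (edgeR adjusted p = 2.87e-05). *Xist*, a transcript of female cells, lay either at 329 to 479 CPM or at 0.492 to 3.51 CPM, with mice of both kinds in every group. By this level each group mixed the sexes, and sex was not part of the main fit.

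A pair of stretches of the *Arntl* promoter is printed because they carry the letters to which REV-ERB and ROR receptors are known to bind. They come from RefSeq's mouse promoter sequences (GRCm38.p6, plus strand), at chr7:113207492-113207521 and chr7:113207528-113207557, and the 11 letters that begin with AAAGTAGGT are in capitals.
*Arntl*, first: attggtcggAAAGTAGGTTAgtggtgcgac
*Arntl*, second: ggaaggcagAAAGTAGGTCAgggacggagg
The first match starts 10 bases before the RefSeq start of this promoter window and the second 26 bases after it. In the GENCODE M21 annotation of GRCm38 the first match lies in an untranslated exon of 1 *Arntl* transcript and upstream of the other 5, and the second in an untranslated exon of 2 and upstream of 4. The letters AAAGTAGGT, on either strand, occur in 0.183% of 32851 promoter windows of 300 bases, and among the windows of the 4 members (7 windows) only *Arntl* has them. The sequence CACGTG, the canonical E-box, is in 7.15% of all windows, in a window of 8.09% of 27025 genes, and in none of the 7 windows of the members. It is in the windows of 2 of the 4 repressor genes with a window (*Per1* and *Cry1*), 3 of 6 output factors (*Tef*, *Ciart* and *Bhlhe41*), 1 of 9 other bHLH-PAS genes (*Hif1a*) and 2 of 9 cofactors (*Sirt1* and *Cipc*), and of 0 of 4 REV-ERB and ROR genes. The related sequences CACGTT (5.44% of genes) and CATGTG (15.9%) were in no window of the members. Among REV-ERB and ROR genes CACGTT was in windows of 2 (*Nr1d1* and *Rorb*) and CATGTG of 1 (*Nr1d1*). Each was in windows of 2 of the 4 repressor genes. Stretches of 30 bases around the E-box nearest the upstream end of the windows of *Per1*, *Cry1*, *Tef*, which encodes an output transcription factor, and *Ciart*, which encodes a repressor of the Bmal1-Clock pair (for *Tef*, the first of its 2 windows that hold an E-box) are printed to show the letters that the pair is known to bind, with the E-box in capitals.
*Per1*, chr11:69098771-69098800, plus strand: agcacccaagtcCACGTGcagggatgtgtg
*Cry1*, chr10:85185097-85185126, minus strand: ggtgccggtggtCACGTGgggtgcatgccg
*Tef*, chr15:81802534-81802563, plus strand: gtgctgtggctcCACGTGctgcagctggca
*Ciart*, chr3:95882327-95882356, minus strand: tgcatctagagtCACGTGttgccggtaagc
A match of letters is a description of the window and does not show that a factor was bound there in these cells.

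The members differed in how much RNA they gave. Per length, as CPM divided by the gene's length in kilobases (RPKM), the mean level over 21 mice was 1.07 for *Clock*, 0.715 for *Arntl*, 0.0322 for *Arntl2* and 0.0176 for *Npas2*. *Arntl* exceeded *Clock* per length in only 2 mice, control ZT0 replicate 2 (1.11 times *Clock*) and knockout ZT0 replicate 3 (1.02 times). Other genes of the bHLH-PAS family ran from well above to below this range. *Arnt*, which encodes the common partner of several family members, had 6.05 RPKM, *Hif1a*, the gene of an oxygen-regulated factor, 3.33 RPKM, and *Ahr*, the gene of the aryl hydrocarbon receptor, 2.63 RPKM.

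**Figure D1:**
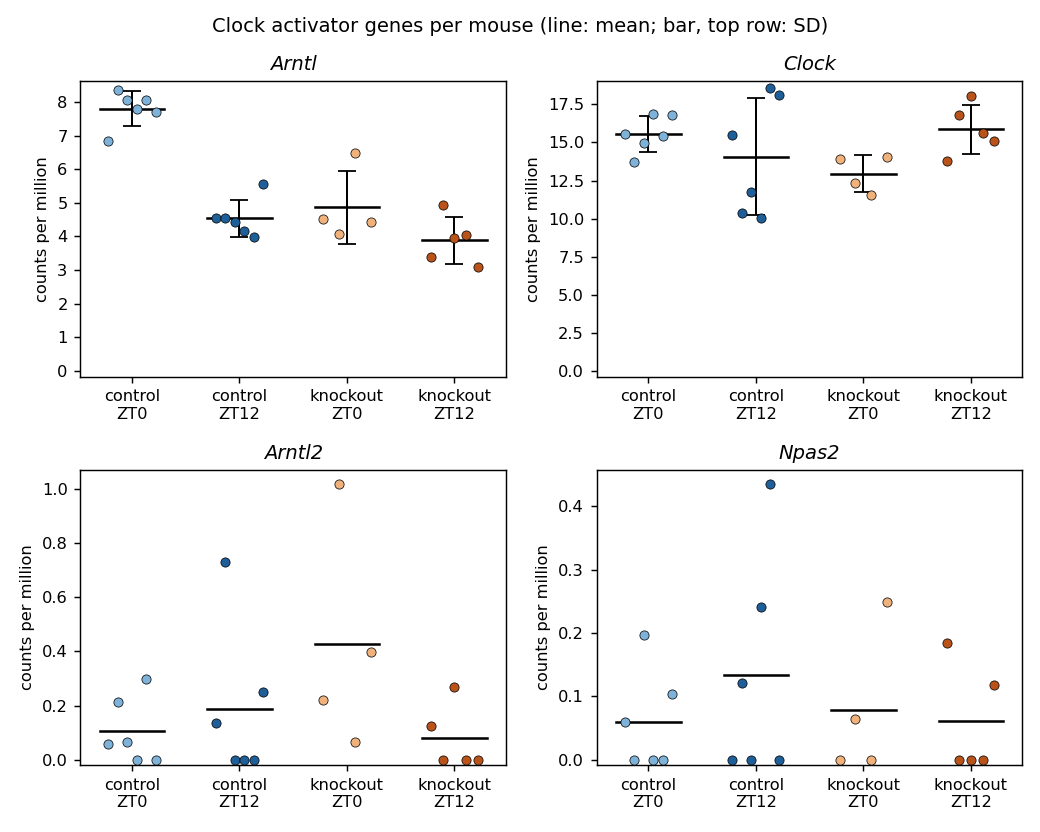
Levels (CPM) of the 4 members in each mouse, by genotype and time. Each point is a mouse, the line is the group mean, and the bar in the upper panels is the SD. The 6 control mice at ZT0 had the highest *Arntl*, from 6.83 to 8.36, while *Arntl2* reached at most 1.02 and *Npas2* at most 0.436, and both were often 0.

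*Arntl* (ENSMUSG00000055116, chr7:113207465-113314126, plus strand) was highest in control mice at ZT0 and lay close together in the other 3 groups. In control mice it had 6.83, 8.36, 8.06, 7.78, 8.05 and 7.71 CPM at ZT0. At ZT12 the 6 control mice had 4.56, 4.56, 4.43, 4.16, 4.00 and 5.56 CPM. The 4 knockout mice at ZT0 had 4.51, 4.08, 6.47 and 4.42 CPM, all below the lowest control mouse of that time, with replicate 3 close to it. The 5 knockout mice at ZT12 had 3.39, 4.93, 3.97, 4.06 and 3.11 CPM and overlapped the control mice of that time. The group means were 7.80 ± 0.53 (SD, n = 6), 4.54 ± 0.55 (n = 6), 4.87 ± 1.08 (n = 4) and 3.89 ± 0.70 CPM (n = 5) in the same order. Knockout ZT0, control ZT12 and knockout ZT12, the 3 lower groups, are neighbours whose ranges overlap.

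These levels rest on few reads, 52 to 158 per mouse. The coefficient of variation between control mice at ZT0, 6.76%, was no larger than the 8.63% that counting alone gives, whereas between knockout mice at ZT0 it was 22.2%, against 10.98% from counting. The counts cover the whole gene, and which part the loxP sites enclose is not given in the sources used here, so reads left in knockout mice may come from outside it. In bulk RNA, fewer cells with a transcript and less of it in each cell cannot be told apart.

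Whether the activators differed with time of day in control mice was asked first. In control ZT12 against ZT0, 1 of the 4 members, *Arntl*, was called (edgeR's quasi-likelihood test, adjusted p under 0.05), and it was lower at ZT12. Of all 20256 genes tested, 1.73% were called and 0.78% were called lower. The log2 difference of *Arntl* was -0.78 (SE 0.15, 95% interval -1.09 to -0.47, edgeR adjusted p = 0.0149), and the 2 groups did not overlap, which held in the same direction for 0.859% of all genes. Without control ZT0 replicate 2 the edgeR adjusted p was 0.0529, and with the immunoglobulin share as a covariate it was 0.123, at log2 differences of -0.75 and -0.85. The immunoglobulin share was 51.5% to 53.3% in control mice at ZT0 and 53.3% to 63.6% at ZT12. Without the 4 libraries of highest share (control ZT12 replicates 2, 4 and 5 and knockout ZT0 replicate 3), *Arntl* differed by -0.68 and was not called (edgeR adjusted p = 0.166).

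Markers of other cells were measured in the same mice. The summed level of the 10 epithelial markers was 66.6, 63.8, 75.7, 54.9, 72.1 and 167 CPM in control mice at ZT0. At ZT12 it was 71.6, 118, 194, 127, 688 and 81.3 CPM. *Epcam*, a surface protein of epithelial cells, was the most abundant of them, and *Muc2*, the mucin of goblet cells, was at 0 in 16 of 21 mice. Of the 9 that passed the count filter, 6 had an unadjusted p under 0.05 in the higher direction at ZT12, against 9.19% of all genes, and 0 were called by edgeR. Among 5 stromal and endothelial markers 1 was called, *Pecam1*, an adhesion molecule of endothelium and some blood cells, which fell by 0.51 on the log2 scale (edgeR adjusted p = 0.0494), where 0.78% of all genes were called lower. At an unadjusted p under 0.05, 3 of these 5 were lower and 1 was higher. *Pecam1* carried nearly all of that list's sum, which was 40.4 ± 2.3 CPM at ZT0 and 27.9 ± 6.2 CPM at ZT12, and *Kdr*, a receptor that defines endothelium, was at 0 in 17 of 21 mice. In control mice the summed T cell markers had means of 14.95 CPM (ZT0) and 14.97 CPM (ZT12), of which *Cd4* alone made 13.5 and 14.4 CPM, while the other 5 T cell markers, all low, were fitted lower at ZT12, 2 of them at unadjusted p values under 0.05 (8.86% of all genes in this direction) and 0 called by edgeR. The myeloid markers had means of 41.0 and 44.9 CPM and the markers of other B cells 22.5 and 20.1 CPM. In knockout mice the epithelial sum was 74.6 ± 7.0 CPM at ZT0. At ZT12 it was 79.0, 146, 77.7, 65.2 and 401 CPM, with replicate 5 far above the other 4 mice. No marker of another cell type was called between genotypes by edgeR. The T cell sum in knockout mice was 21.1 ± 5.1 CPM at ZT0, of which *Cd4* made 19.8 CPM, and 17.9 ± 3.0 CPM at ZT12. In knockout against control at ZT12 all 6 T cell markers were fitted higher (median log2 difference 1.48). Of these, 1 had an unadjusted p under 0.05, against 8.83% of all genes in either direction. At ZT0 2 were fitted higher and 4 lower, with 1 higher at an unadjusted p under 0.05, against 4.9%. The part of these cells in the *Arntl* difference was not tested.

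*Clock* (ENSMUSG00000029238, chr5:76209868-76304792, minus strand) was not called in any comparison. In control mice at ZT0 it had 15.6, 13.7, 14.9, 16.9, 15.5 and 16.8 CPM. At ZT12 the control mice had 15.5, 10.4, 11.7, 10.01, 18.6 and 18.1 CPM, a lower and a higher set of 3 mice each, and every ZT0 mouse lay above the lower set. The coefficient of variation of that group was 27.4%, against 6.6% from counting, the largest excess among the 4 groups of this gene. Knockout mice had 13.9, 12.3, 11.5 and 14.1 CPM at ZT0. They had 13.8, 16.8, 18.02, 15.6 and 15.1 CPM at ZT12, where only 1 of the 5 mice lay within the range of the ZT0 mice.

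The log2 difference of *Clock* between ZT12 and ZT0 was -0.14 in control mice (95% interval -0.42 to 0.13, edgeR adjusted p = 0.606) and 0.29 in knockout mice (-0.03 to 0.61, edgeR adjusted p = 0.649). The first interval corresponds to a *Clock* level at ZT12 of 0.748 to 1.095 times that at ZT0. The difference between these time differences was 0.44 (95% interval 0.01 to 0.86, edgeR unadjusted p = 0.0438, adjusted p = 0.455), and 10.8% of all genes had an unadjusted p under 0.05 in that test. It was 0.27 with the immunoglobulin share as a covariate and 0.59 with scaling by library size only. Between genotypes *Clock* differed by -0.26 at ZT0 (-0.57 to 0.05) and by 0.17 at ZT12 (-0.11 to 0.46). With 1 mouse left out the control time difference ran from -0.24 (without control ZT12 replicate 5) to -0.07 (without control ZT12 replicate 4). The genotype difference at ZT12 then ran from 0.09 (without control ZT12 replicate 2) to 0.27 (without control ZT12 replicate 5), and it was 0.07 without the 4 libraries of highest immunoglobulin share. *Ube2n-ps1*, a pseudogene on the same strand inside *Clock*, had 547 counts over all mice, and whether its reads could be shared with *Clock* cannot be told without the counting rules.

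**Figure D2:**
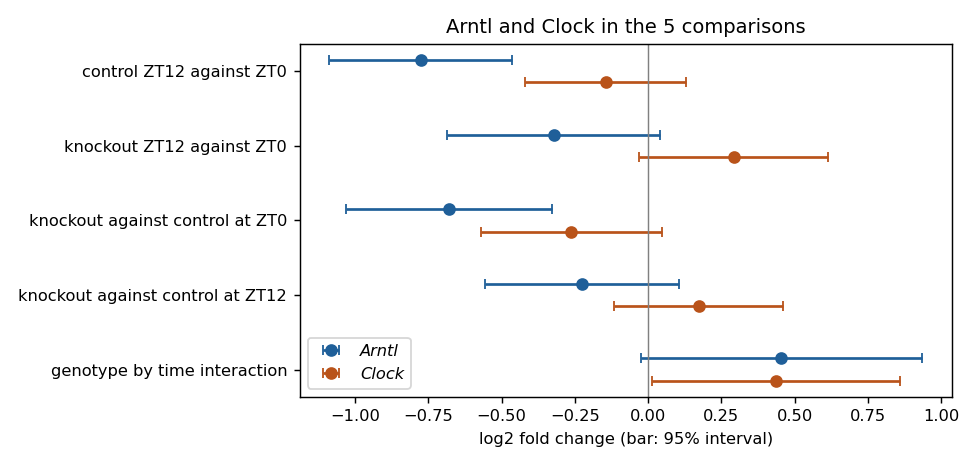
Fitted log2 fold changes of *Arntl* and *Clock* in the 5 comparisons, with 95% intervals from edgeR. For *Arntl* the intervals of the control time comparison (-1.09 to -0.47) and of the genotype comparison at ZT0 (-1.03 to -0.33) lie below 0, and for *Clock* that of the interaction (0.01 to 0.86) lies just above 0.

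Between genotypes the question was whether the floxed gene and its partners differed in IgA+ PCs. None of the 4 members was called in knockout against control at ZT0, by edgeR or by DESeq2, where edgeR called 0.00987% of all genes. *Arntl* alone passed an unadjusted p of 0.05, as did 4.9% of all genes. Its log2 difference was -0.68 (SE 0.17, 95% interval -1.03 to -0.33), with an edgeR unadjusted p of 0.000486 and an adjusted p of 0.926. Its groups did not overlap, as was the case in the lower direction for 0.474% of all genes. At ZT12 none of the 4 members was called by either tool and none had an unadjusted p under 0.05, where edgeR called 0.0148% of all genes and 8.83% had an unadjusted p under 0.05. The *Arntl* difference there was -0.23 (95% interval -0.56 to 0.11, edgeR adjusted p = 0.678). With scaling by library size only it was -0.11, at a median of 0.12 over all genes.

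Within knockout mice none of the 4 members was called between ZT12 and ZT0 by edgeR or DESeq2, and edgeR called 0% of all genes. No member had an unadjusted p under 0.05, against 8.01% of all genes, and *Arntl* differed by -0.32 (95% interval -0.69 to 0.04, edgeR adjusted p = 0.655). Without knockout ZT0 replicate 3 the difference was -0.16 (edgeR adjusted p = 0.969). That *Arntl* passed the test in control mice and not in knockout mice does not show that the time differences differ. The test of that difference gave 0.45 (95% interval -0.03 to 0.94, edgeR unadjusted p = 0.0627, adjusted p = 0.476), and no member was called by edgeR or DESeq2 in it. EdgeR called 0% of all genes there, and *Clock* alone among the members had an unadjusted p under 0.05.

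The number of *Arntl* reads per *Clock* read in the same mouse does not depend on how libraries are scaled. It was 0.505 ± 0.065 (SD, n = 6) in control mice at ZT0 and 0.341 ± 0.085 (n = 6) at ZT12. In knockout mice it was 0.383 ± 0.119 (n = 4) at ZT0 and 0.245 ± 0.034 (n = 5) at ZT12. The lowest control mouse at ZT0 (0.439) and the highest at ZT12 (0.439) were almost equal. Among knockout mice at ZT0, replicate 3 stood at 0.561 while the other 3 mice lay between 0.314 and 0.332, and all 5 mice at ZT12 lay below 0.294. In both genotypes the mean was lower at ZT12, and this ratio was not tested.

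**Figure D3:**
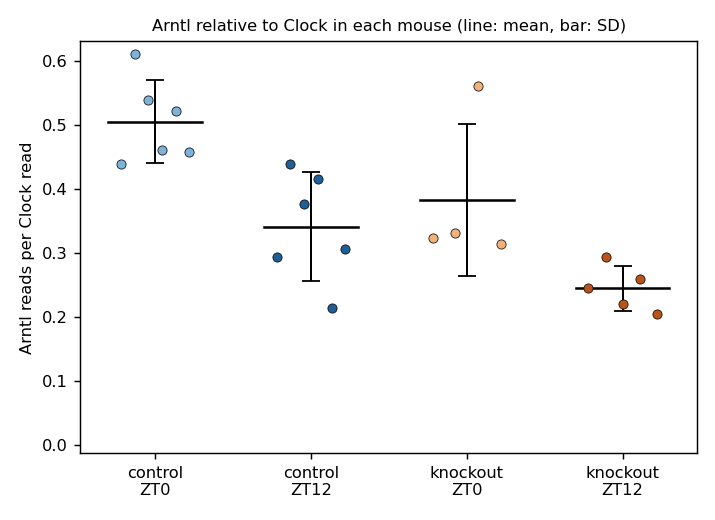
*Arntl* reads per *Clock* read in each mouse, by genotype and time. Points are mice, lines are means and bars are SDs. The mean ratio is 0.505 at ZT0 and 0.341 at ZT12 in control mice and 0.383 and 0.245 in knockout mice, with 1 knockout mouse at ZT0 at 0.561.

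*Arntl2* (ENSMUSG00000040187, chr6:146796055-146833529, plus strand) had 65 counts in all mice together. By mouse these were 1, 4, 1, 0, 5 and 0 in control mice at ZT0 and 3, 12, 0, 0, 0 and 4 at ZT12. In knockout mice they were 4, 16, 1 and 8 at ZT0 and 2, 0, 4, 0 and 0 at ZT12. Single mice with 12 and 16 counts held the highest values, and 8 of 21 mice had none.

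*Npas2* (ENSMUSG00000026077, chr1:39193731-39363236, plus strand) had 28 counts. They were 1, 0, 3, 0, 0 and 2 in control mice at ZT0 and 0, 2, 0, 3, 6 and 0 at ZT12. Knockout mice had 0, 1, 0 and 5 counts at ZT0 and 3, 0, 0, 0 and 2 at ZT12, and 11 of 21 mice had none. A count of 0 allows a level of up to 3 counts, which was 0.134 to 0.240 CPM depending on the mouse and covers counting error only. *Npas2* was thus near the limit of detection in every group, and *Arntl2* in all but knockout mice at ZT0, where 3 of 4 mice had more than 3 counts. The fitted log2 difference of *Arntl2* was 1.93 (95% interval -0.42 to 4.28, edgeR adjusted p = 0.926) in knockout against control at ZT0. Between times in knockout mice *Arntl2* differed by -2.36 (95% interval -4.93 to 0.21, edgeR adjusted p = 0.643). Without knockout ZT0 replicate 2, the mouse with 16 counts, they were 1.08 and -1.51. The intervals with all mice are wide, the groups of both genes overlapped in all comparisons, and the fitted values rest on few counts. How far these values depend on the prior count was not tested.

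Among the genes on which the activators act, 1 was called between genotypes at both times. *Nr1d2*, which encodes REV-ERB beta, had 46.1 to 58.6 CPM in control mice at ZT0 (mean 51.8 ± 4.9, n = 6) and 52.1 to 73.5 CPM at ZT12 (63.9 ± 8.0, n = 6). In knockout mice *Nr1d2* had 12.6, 11.7, 7.80 and 11.8 CPM at ZT0. At ZT12 the knockout mice had 8.69, 13.4, 11.9, 11.01 and 9.61 CPM of *Nr1d2*. The highest of all knockout mice (13.4 CPM) was thus far below the lowest control mouse (46.1 CPM). The log2 difference of *Nr1d2* was -2.24 at ZT0 (SE 0.14, edgeR adjusted p = 8.82e-11) and -2.55 at ZT12 (SE 0.13, edgeR adjusted p = 6.06e-13), and its p ranked 1 of all genes tested in both comparisons.

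Among mice of the same group the *Nr1d2* level did not follow the *Arntl* level. Knockout ZT0 replicate 3, which had the most *Arntl* of the knockout mice (6.47 CPM), had the least *Nr1d2* of all 21 mice (7.80 CPM). Control mice at ZT12 had *Arntl* at 4.00 to 5.56 CPM, which overlaps knockout mice, and *Nr1d2* at 52.1 CPM or more. The Pearson r of *Arntl* and *Nr1d2* was 0.48 over 21 mice and 0.04 for deviations from the group means. The *Nr1d2* promoter windows hold no CACGTG.

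**Figure D4:**
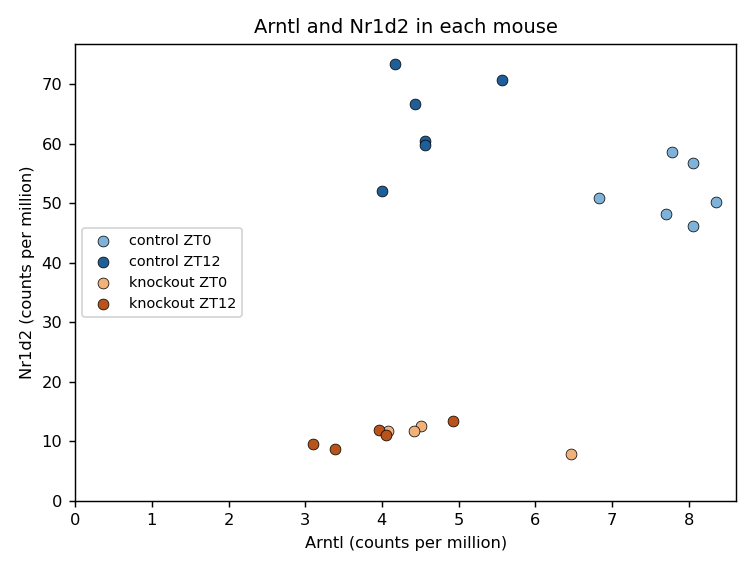
*Arntl* against *Nr1d2*, both in CPM, with a point for each mouse. The 12 control mice lie above 46 and the 9 knockout mice below 14 on the *Nr1d2* axis, while control mice at ZT12 and knockout mice overlap on the *Arntl* axis.

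*Nr1d1*, the gene of REV-ERB alpha, was low and varied more. It had 1.15 to 2.90 CPM in control mice at ZT0 and 0.275 to 0.734 CPM in knockout mice, with no overlap (0.474% of all genes in this direction). The log2 difference of *Nr1d1* was -2.24 (SE 0.54, edgeR adjusted p = 0.926) at ZT0 and -2.07 (SE 0.45, edgeR adjusted p = 0.379; DESeq2 adjusted p = 0.00457) at ZT12. In control mice *Nr1d1* differed by 1.52 (SE 0.41, edgeR adjusted p = 0.0597) between ZT12 and ZT0. With all 21 mice and no covariate, edgeR (20256 genes) called *Nr1d1* in no comparison and *Nr1d2* in neither time comparison. *Nr1d1* was called between times in control mice by DESeq2 (adjusted p = 0.00694), by edgeR under filterByExpr (0.0458), and by edgeR without control ZT12 replicate 1 (0.0295), control ZT12 replicate 6 (0.0404) or knockout ZT12 replicate 5 (0.0311). In that comparison DESeq2 called 1052 of the 12381 genes to which it gave an adjusted p, and edgeR under filterByExpr 460 of 13717. Between genotypes at ZT12 edgeR called *Nr1d1* without knockout ZT12 replicate 5 (-2.71, adjusted p = 0.00897). *Rorb* did not pass the count filter.

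In the edgeR fit of the 4 group means to all 21 mice and 20256 genes, no covariate was used. There, none of the 5 repressor genes was called in any comparison. *Cry1* had 12.6 to 17.6 CPM in control mice at ZT0 and 27.5, 25.1, 22.2 and 20.1 CPM in knockout mice. Its log2 difference was 0.69 (SE 0.13, edgeR adjusted p = 0.0656), while DESeq2 called it (adjusted p = 0.00384). EdgeR also called *Cry1* there without a count filter (adjusted p = 0.0274), in a fit to the compared groups alone (0.0438), with the immunoglobulin share as a covariate (0.00919), and without control ZT0 replicate 2 (0.0354), control ZT12 replicate 2 (0.024), knockout ZT0 replicate 4 (0.0443) or knockout ZT12 replicate 2 (0.0207). *Cry2* had 16.2 to 20.5 CPM in control mice at ZT0 and 24.7, 30.5, 25.7 and 23.5 CPM in knockout mice, with a log2 difference of 0.57 (SE 0.12, edgeR adjusted p = 0.254; DESeq2 adjusted p = 0.0235). *Per2* had 6.19 to 10.3 CPM in control mice and 10.4 to 16.3 CPM in knockout mice at ZT0, with a log2 difference of 0.83 (SE 0.26, edgeR adjusted p = 0.926). These 3 genes did not overlap between genotypes at ZT0, against 0.504% of all genes in the higher direction. At ZT12 *Cry1* and *Cry2* also did not overlap, with log2 differences of 0.45 (SE 0.12) and 0.40 (SE 0.11) and an edgeR adjusted p of 0.562 for both, against 0.242% of all genes. *Per3* was lower without overlap at ZT12, at -0.62 (SE 0.16, edgeR adjusted p = 0.562), against 0.138%. In control mice the smallest p values between times were those of *Per2* (0.81, SE 0.24, edgeR adjusted p = 0.0877) and *Cry1* (0.35, SE 0.11, edgeR adjusted p = 0.111), and these were the 2 of 5 with unadjusted p values under 0.05, both higher, against 9.19% of all genes. DESeq2 called both (adjusted p = 0.0121 and 0.0395), where it called 1052 of 12381 genes. EdgeR called *Per2* without control ZT12 replicate 2 (adjusted p = 0.0189) and without the 4 libraries of highest immunoglobulin share (0.0498).

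All 7 output factors passed the filter. In control mice 1 of 7 was called higher at ZT12 and 0 lower, where 0.948% of all genes were called higher, and the called gene was *Tef*, which encodes a PAR bZIP transcription factor. *Tef* had 14.3 to 18.1 CPM at ZT0 and 23.0 to 30.5 CPM at ZT12, with no overlap (0.745% of all genes in this direction), a log2 difference of 0.71 (SE 0.09, edgeR adjusted p = 0.000437). With the immunoglobulin share as a covariate the *Tef* difference was 0.61 (edgeR adjusted p = 0.0508). In knockout mice *Tef* lay at 19.9 to 25.9 CPM at ZT0 and 20.6 to 23.6 CPM at ZT12, above every control mouse at ZT0 and overlapping the control mice at ZT12, and differed by -0.06 (SE 0.10, edgeR adjusted p = 0.924). The interaction for *Tef* was -0.76 (SE 0.14, edgeR adjusted p = 0.138; DESeq2 adjusted p = 0.00114), and edgeR called it without control ZT12 replicate 1 (adjusted p = 0.0317). The E-box gene *Ciart* differed by 1.02 (SE 0.32, edgeR adjusted p = 0.0981) between times in control mice. Its DESeq2 adjusted p was 0.0254, where DESeq2 called 1052 of 12381 genes. Between genotypes at ZT0 *Tef* differed by 0.44 (SE 0.10, edgeR adjusted p = 0.44) and *Dbp*, a related PAR bZIP gene, by 0.45 (SE 0.29, edgeR adjusted p = 0.926). With all mice no output factor was called by edgeR between genotypes at either time or in the interaction, with 1 of 7 at an unadjusted p under 0.05 at each time and 2 in the interaction, beside 4.9%, 8.83% and 10.8% of all genes; DESeq2 called *Tef* in the interaction.

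**Figure D5:**
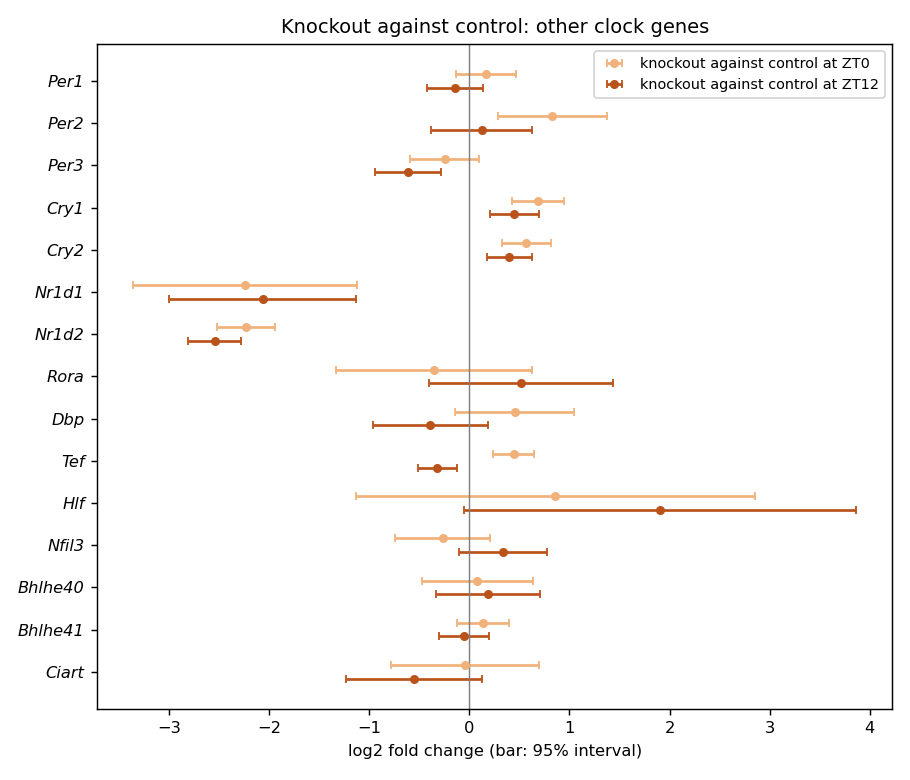
Knockout against control log2 fold changes at ZT0 and ZT12 for the repressors and output factors that passed the count filter and for *Nr1d1*, *Nr1d2* and *Rora*, with 95% intervals from edgeR. *Nr1d2* lies at -2.24 and -2.55, *Cry1* at 0.69 and 0.45 and *Cry2* at 0.57 and 0.40, and *Tef* lies on opposite sides of 0 at the 2 times.

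Other bHLH-PAS genes and the proteins that modify Clock and Bmal1 were not called in any of the 5 comparisons by edgeR or DESeq2. Of 12 bHLH-PAS genes 8 passed the filter. In control mice 1 of them was lower at ZT12 at an unadjusted p under 0.05, against 8.86% of all genes. That gene was *Epas1*, which encodes an oxygen-regulated factor, at -0.60 (SE 0.23, edgeR adjusted p = 0.175), followed by *Hif1a* at -0.24 (SE 0.16, edgeR adjusted p = 0.43). Between genotypes at ZT0 the smallest p values were those of *Ahr* (0.60, SE 0.26, edgeR adjusted p = 0.926) and *Sim1* (1.60, SE 1.22, edgeR adjusted p = 0.926), the latter on 49 counts in all. All 11 cofactor genes passed the filter, and 4 of them were lower at ZT12 in control mice at unadjusted p values under 0.05, with 0 higher, against 8.86% of all genes. The smallest p values among cofactors belonged to *Ncoa3*, a coactivator with acetyltransferase activity (-0.31, SE 0.11, edgeR adjusted p = 0.151), and *Gsk3b*, a kinase (-0.43, SE 0.17, edgeR adjusted p = 0.199). Between genotypes at ZT0 they belonged to *Sirt1*, a deacetylase (-0.30, SE 0.12), and *Kdm5a*, a histone demethylase (-0.22, SE 0.13), both at an edgeR adjusted p of 0.926. The median log2 difference of the cofactors in control mice was -0.17, beside 0.01 over all genes tested. Some cofactors spread widely between control mice at ZT12, as *Clock* did. The widest coefficients of variation were 32.5% for *Gsk3b*, 30.2% for *Ep300*, an acetyltransferase gene, and 25.0% for *Kmt2a*, a histone methyltransferase gene. At ZT0 they were 11.7%, 5.58% and 13.3%. *Crebbp*, *Kdm5a*, *Ncoa3* and *Ube3a* had 16.1%, 18.9%, 18.1% and 20.3% at ZT12, against 6.23%, 10.04%, 9.54% and 11.8% at ZT0. *Cipc*, *Csnk2a1*, *Kat2b* and *Sirt1* changed little, at 10.5%, 13.2%, 11.2% and 11.5% against 9.01%, 13.7%, 10.2% and 13.5%. The r of *Gsk3b*, *Ep300* and *Kmt2a* with *Clock* within groups was 0.63, 0.63 and 0.59 over 21 mice. For *Crebbp*, *Kat2b*, *Kdm5a*, *Ncoa3* and *Ube3a* it was 0.58, 0.53, 0.40, 0.58 and 0.52. For *Csnk2a1*, *Cipc* and *Sirt1* it was 0.07, -0.16 and -0.52. In knockout mice 9 of the 11 cofactors were fitted higher at ZT12 (median 0.14, beside 0.01). Of these, 1 had an unadjusted p under 0.05, against 8.01% of all genes in either direction. In knockout against control at ZT12, 3 of 11 were higher at unadjusted p values under 0.05, against 8.83% of all genes in either direction. In the interaction 10 of 11 were fitted higher, 4 of them at unadjusted p values under 0.05, against 10.8% of all genes.

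*Arntl* and *Clock* did not follow each other across the mice, with a Pearson r of log2 CPM of 0.15 over 21 mice and 0.11 for deviations from the group means. Among 11394 genes with a mean of at least 1 CPM, immunoglobulin genes left out, those most like *Arntl* were *Entpd6* (r = 0.78), *Prkar1a* (0.71), *St6galnac6* (0.71), *Jazf1* (0.71) and *Sept4* (0.71). Within groups the r of these 5 genes was 0.27, 0.12, 0.25, 0.48 and 0.62, so for the first 3 the likeness lay mostly between groups. The genes most opposite to *Arntl* were *Gpx3* (-0.73), *Rrbp1* (-0.72) and *Grpel1* (-0.71), with -0.39, 0.11 and -0.08 within groups. *Cry1* was 8 from the lowest with an r of -0.68, but 0.12 within groups.

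For *Clock* the most alike were *Zfp354c* (0.84), *Paox* (0.84), *Zgpat* (0.83), *Sipa1l3* (0.82) and *Smarcc2* (0.80), and the most opposite were *Dcaf13* (-0.86), *Clta* (-0.83) and *Nsmce2* (-0.82). Their r within groups was 0.82, 0.86, 0.83, 0.80 and 0.77 for the first 5 and -0.85, -0.81 and -0.82 for the last 3. For all 8 genes the r within groups lay close to the r by which they were picked from the same mice. It is thus no separate test of the likeness to *Clock*. All these values come from the same 21 libraries, and a property of a library that moves many genes enters each of them.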

How the data were processed

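For each of 21 libraries the authors deposited whole-number read counts by gene, without normalization, made from poly-A RNA with paired reads of 150 bases; the aligner, counter, strand setting and genome build are not given in the sources used here. Of 53620 gene IDs matched to GENCODE M21 (GRCm38), 97.1% have the same coordinates in the table. The deposited gene lengths gave the RPKM values.

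The 20256 genes whose counts summed to 10 or more were fitted with edgeR 4.0.16 in R 4.3.3 (TMM, robust quasi-likelihood, means of the 4 groups), with Benjamini-Hochberg adjustment over all of them; DESeq2 1.42.0 was an alternative. A gene is called at an adjusted p under 0.05. Groups come from the sample titles, because the genotype field of most knockout samples names the control genotype. The members, the gene lists and the rule for named genes (the members, called genes of each list, and in each list the 2 smallest p values in control mice between times and in knockout against control at ZT0) were chosen with earlier results of these data known. *Per3*, the *Cry1* and *Cry2* values at ZT12, and *Per2* at ZT0 were named after their values were seen, as were *Rora* (in a figure), *Ep300*, *Kmt2a*, *Arnt*, *Epcam*, *Muc2*, *Kdr* and *Ube2n-ps1*. The spread and r values of the other cofactors and the T cell values between genotypes were also added after values were seen. On simulated counts with 200 changed genes (log2 fold of 1) among 19650, 165 (82.5%) were recovered for control ZT12 against ZT0 and 162 (81%) for knockout against control at ZT0, with 4 and 5 false calls. The changed genes were drawn from the more abundant ones. Each gene was simulated on its own, without a library property that moves many genes. These shares hold for that setting only, and not for smaller differences such as that of *Arntl*. Depth ranged from 14471018 to 22785835 counts, and the 46 pairs of libraries within groups differed by more than sampling noise. A result of the REV-ERB and ROR list is not reported here.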

Additional observations from a re-analysis of the deposited data

Results flagged for a closer look

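In 20 groups of values (the 4 members and *Nr1d2*, each in 4 groups), 2 mice stood apart from the rest of their group by Dixon's test at the 95% level, which chance gives in about 1 group of 20. Control ZT12 replicate 6 had 5.56 CPM of *Arntl* (89 counts), where the next highest mouse of the group had 4.56 CPM. Control ZT12 replicate 2 had 0.729 CPM of *Arntl2* (12 counts), where the next highest had 0.25 CPM.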

How the results depend on the processing

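The alternatives were DESeq2, its size factors used within edgeR, scaling by library size only, leaving out immunoglobulin genes, filterByExpr or no filter on counts, a stricter threshold (0.01), a fit to the compared groups alone (own groups only), a replicate block, the immunoglobulin share or the *Xist* level as a covariate, and each library left out in turn; leaving out the 4 libraries of highest immunoglobulin share was chosen after seeing the data. No alternative called a member outside control ZT12 against ZT0. There, 1 member was called, and 0 at a threshold of 0.01, with the immunoglobulin share as a covariate, and without the 4 libraries; over single libraries left out the number was 0 (control ZT0 replicate 2) to 1. The log2 difference of *Arntl* lay between -0.98 (library size only) and -0.68 (without the 4 libraries). Library size only moved the median of all genes by -0.20 in that comparison. Genes called there were 350, and 1052 by DESeq2 (of 12381 with an adjusted p), 38 in own groups only, 183 with the replicate block, 14 at 0.01, 0 with the immunoglobulin share, 12 without the 4 libraries and 31 to 944 with 1 library left out. DESeq2 called 5 of 20207 genes in knockout against control at ZT0, 8 of 13943 at ZT12 and 4 of 14334 in the interaction.

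With the immunoglobulin share as a covariate the control time difference was 0.0139 for *Clock*, -0.20 for *Arntl2* and -0.0072 for *Npas2*. Without the 4 libraries *Npas2* was -3.19 in control time, 3.23 between genotypes at ZT12 and 2.46 in the interaction. With 1 library left out *Arntl2* ran from -0.36 to 1.37 in control time, and *Npas2* from -1.22 to 1.27 in knockout time, -1.23 to 1.11 between genotypes at ZT0 and -2.26 to 0.24 in the interaction. The cause was not tested; these genes had 65 and 28 counts. *Nr1d2* was called between genotypes at both times under every alternative.

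Over 28 pairs of mice with the same replicate number, the r of their deviations had a median of 0.003 (range -0.29 to 0.62, 9 above 0.1). The highest was that of replicate 5 in control and knockout mice at ZT12. What the numbers stand for is not given in the sample titles, and they were taken as names. With the replicate block *Arntl* was -0.78 in control time (edgeR adjusted p = 0.0241), and the block changed no call of a member. Such a block takes out only what mice of the same number share, and no other grouping of the libraries.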
